A study of Homo sapiens with 24 samples.

Results

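The 10 genes described here belong to the BCL2 family, which sets whether a cell starts apoptosis through its mitochondria, and were measured in 4 breast cancer cell lines with and without ADAR1 knockdown. They are the listed genes whose Ensembl identifiers map to the symbols BBC3, PMAIP1, BCL2L11, BIK, BID, BAX, BAK1, BCL2, BCL2L1 and MCL1. These are 10 of 37416 genes with counts, and all 10 were among the 21352 that passed the filter on low counts. They were chosen by name and not by a cut on a measured value. Earlier results of these data were known when they were chosen.

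Proteins of this family meet at the outer mitochondrial membrane. Guardians (here BCL2, BCL2L1 and MCL1) hold the effectors BAX and BAK1 in check, and BH3-only proteins (here BBC3, PMAIP1, BCL2L11, BIK and BID) bind guardians or effectors through a short helix called the BH3 domain. Once freed or activated, the effectors make pores that release cytochrome c, which starts the caspase cascade. Breast cancer cells are known for depending on BCL2L1 or MCL1 to stay alive.

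The study sequenced RNA from the lines BT549, HCC1806, MDAMB231 and MDAMB468, described as triple-negative breast cancer (TNBC), to assess what loss of ADAR1, an enzyme that edits adenosines in double-stranded RNA, does to expression. Each line carried a lentiviral short hairpin against ADAR1 (shADAR1) or a non-targeting control hairpin (shNT), which makes 8 groups of 3 biological replicates and 24 libraries. Both arms went through the same 24 h of lentiviral infection and 72 h of puromycin at 2 µg/ml, so the controls are infected and drug-selected cells too. The labels give neither the hairpin's sequence nor the number of hairpins, and puromycin survivors are a pool, not a clone. They call the replicates biological and do not say that they are separate cultures, so p-values measure the spread between these libraries.

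Library totals ran from 10370645 to 97218217 counts. ADAR, the targeted gene, was lower in every shADAR1 library than in every shNT library of its line, with a mean log2 fold change over the lines of -1.79 (SE 0.0738, adjusted p 3.20e-13 in edgeR's quasi-likelihood test). Of the identity markers, KRT8, KRT18, EPCAM and CDH1 (epithelium) were high in HCC1806 and MDAMB468, with KRT8 at 188 and 286 RPKM in shNT. In BT549 they were near 0 (KRT8 at 0.137 RPKM), and VIM, a mesenchymal filament, was at 465 RPKM. MDAMB231 held both KRT8 (93.2 RPKM) and VIM (867 RPKM), with CDH1 near 0. ESR1 and PGR reached a group mean of at most 1.75 and 0.0481 RPKM, while ERBB2 was at 7.36 to 9.69 RPKM. Of 4 blood and endothelial markers, the leukocyte gene PTPRC and the red cell gene HBB were at or near 0 in all 8 groups. Group means were 0.0710 RPKM or less for PTPRC and 0 for HBB. The other markers, PECAM1 (endothelium) and CD68 (macrophage), passed the filter on low counts and their levels are not described here, so the absence of other cells was not tested.

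The BH3 domain is where these proteins bind each other, so the coding bases of its core are shown for the 6 members the results below turn on. Each line gives 18 bases from the GENCODE 29 transcript on GRCh38, with the codon for leucine and the codons for glycine or alanine and aspartate in capitals. The reading frames of all 10 genes held this pattern (leucine, 3 residues, glycine or alanine, aspartate) exactly 1 time, within a single exon; it occurs in 25% of 19523 protein-coding genes, so the pattern alone does not mark the family.
BBC3 (chr19:47226591-47226608, minus strand, exon 3 of 4): CTGcggcggatgGCGGAC
PMAIP1 (chr18:59902673-59902690, plus strand, exon 2 of 2): CTCaggagatttGGAGAC
BCL2L11 (chr2:111150103-111150120, plus strand, exon 4 of 5): TTGcggcgtattGGAGAC
BAK1 (chr6:33575399-33575416, minus strand, exon 4 of 6): CTCgccatcatcGGGGAC
BCL2L1 (chr20:31721934-31721951, minus strand, exon 2 of 3): CTGagggaggcaGGCGAC
MCL1 (chr1:150578877-150578894, minus strand, exon 1 of 3): TTAcgacgggttGGGGAT
BBC3 was the only one of the 10 with an alanine codon, GCG, where the other 9 had a glycine codon.

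Levels are given first, as RPKM, that is reads scaled to the library total and to the listed gene length, because genes can be compared with each other only per length. Guardian transcripts stood at the top of the family in the control arm. MCL1 was first in BT549 (70.4 ± 3.84 RPKM, mean ± SD, n = 3), HCC1806 (75.4 ± 13.8 RPKM) and MDAMB468 (90.2 ± 13.04 RPKM), and BCL2L1, the gene of BCL-xL and BCL-xS, was first in MDAMB231 (149 ± 10.7 RPKM). In each line the other of the pair was second, at 34.4, 66.3, 22.1 and 109 RPKM for BT549, HCC1806, MDAMB468 and MDAMB231. MCL1 lay at percentile 97.6 to 98.8 and BCL2L1 at 91.2 to 99.3 of all genes tested. The family's namesake BCL2 was at the other end, with 0.557 to 2.02 RPKM, and no more than 1 member was below it in any line.

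The effectors sat between these. BAX came next after the guardians MCL1 and BCL2L1 in BT549, HCC1806 and MDAMB231 (21.4 to 25.5 RPKM), while in MDAMB468 (11.4 RPKM) BID and BAK1 were above it. BAK1 was at 12.8 to 19.7 RPKM. Among BH3-only genes the leader changed with the line. BID, which caspase-8 cleaves to link death receptors to mitochondria, led in BT549 (6.85 ± 0.912 RPKM), HCC1806 (13.9 ± 1.96 RPKM) and MDAMB468 (17.8 ± 0.382 RPKM). PMAIP1 (NOXA), which binds mainly MCL1, led in MDAMB231 at 19.6 ± 4.95 RPKM. BBC3 (PUMA), which binds all the guardians, was at 1.18 to 3.16 RPKM, with at least 6 members above it in every line.

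**Figure D1:**
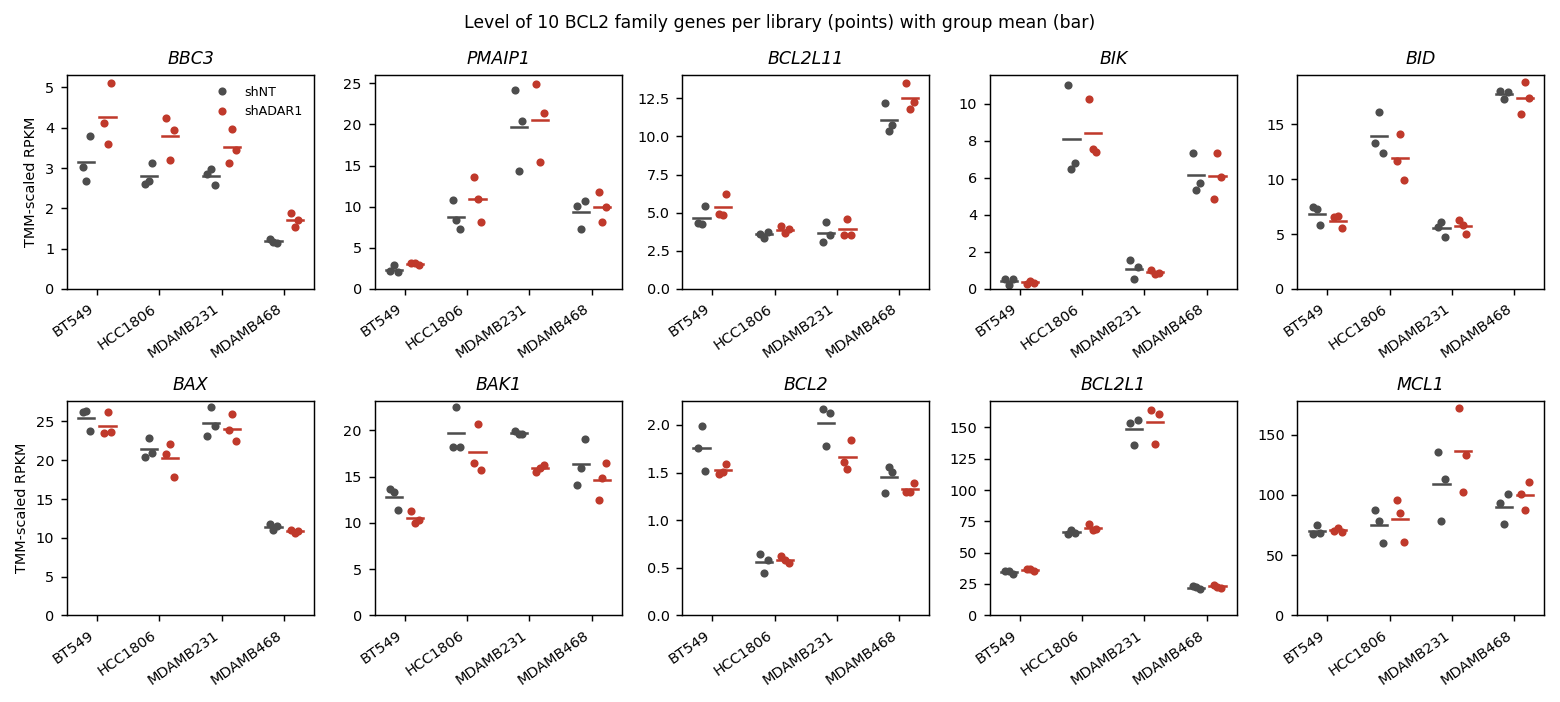
RPKM after TMM scaling of each of the 10 genes (1 panel a gene, each y axis starting at 0) in the 4 lines, with a point for each of 3 libraries and a bar for the group mean, shNT grey and shADAR1 red. The step between lines is larger than that between arms for most genes; BCL2L1 falls from 149 RPKM in MDAMB231 shNT to 22.1 in MDAMB468 shNT.

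Differences between lines within the shNT arm were tested in the same edgeR quasi-likelihood model, with Benjamini-Hochberg adjustment over all genes tested and a threshold of 0.05. Of 60 differences (10 genes by 6 pairs of lines), 43 passed. HCC1806 differed from BT549 in 8 of the 10 genes (63.5% of all genes tested did), MDAMB231 from BT549 in 6 (56.5%), and MDAMB468 from BT549 in 8 (61%). MDAMB231 differed from HCC1806 in 7 (59%), MDAMB468 from HCC1806 in 6 (62.9%) and MDAMB468 from MDAMB231 in 8 (61.8%). These shares are near those of all genes, so the family did not stand out in how often it differs between lines.

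BCL2L1 was the 1 member in which all 6 pairs of lines differed. Its CPM (counts scaled to the library total, after TMM scaling) in replicates 1, 2 and 3 of shNT was 509, 452 and 517 in MDAMB231 and 216, 224 and 219 in HCC1806. It was 117, 116 and 109 CPM in BT549 and 77.5, 73.9 and 68.7 CPM in MDAMB468. No library of a line overlapped one of another, and the mean was 6.71-fold higher in the first line than in the last. The smallest of its 6 differences, MDAMB468 against BT549, was -0.64 on the log2 scale (SE 0.0797, edgeR adjusted p 2.63e-07).

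MCL1, whose protein is made and degraded within hours, differed in the fewest pairs of lines. Its shNT libraries were at 296, 327 and 300 CPM in BT549, 382, 343 and 263 in HCC1806, 592, 342 and 495 in MDAMB231, and 409, 331 and 442 in MDAMB468. All BT549 libraries lay below those of MDAMB231 and MDAMB468, the other pairs of lines overlapped, and 2 of 6 pairs passed, MDAMB231 against BT549 (log2 fold change 0.63, edgeR adjusted p 0.00753) and against HCC1806 (0.53, edgeR adjusted p 0.0209). No neighbours in the order MDAMB231, MDAMB468, HCC1806, BT549 differed beyond the threshold.

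BIK, a BH3-only gene whose product sits at the endoplasmic reticulum, had the widest range. Its shNT means were 8.11 ± 2.54 RPKM in HCC1806, 6.13 ± 1.04 in MDAMB468, 1.08 ± 0.511 in MDAMB231 and 0.448 ± 0.178 in BT549, an 18.1-fold range. HCC1806 and MDAMB468 did not differ (edgeR adjusted p 0.244), and every other pair did. BT549 and MDAMB231 rested on 15 to 50 BIK counts per shNT library, so their levels are the least precise of the family.

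PMAIP1 spanned 8.30-fold, from 4.51 to 6.38 CPM in the BT549 shNT libraries up to 32.1 to 54.0 CPM in those of MDAMB231. HCC1806 (16.2 to 24.1 CPM) and MDAMB468 (16.4 to 23.9 CPM) lay between and did not differ (edgeR adjusted p 0.730). BCL2, the founding guardian, spanned 3.63-fold: 15.5 ± 1.65 CPM in MDAMB231, 13.5 ± 1.82 in BT549, 11.1 ± 1.14 in MDAMB468 and 4.27 ± 0.817 in HCC1806. HCC1806 was below each of the other 3 lines for BCL2, with edgeR adjusted p at most 2.73e-08.

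BID and BCL2L11 (BIM), which can activate BAX and BAK1 directly, were both highest in MDAMB468. BID was at 79.1 ± 1.70 CPM there, 62.0 ± 8.71 in HCC1806, 30.4 ± 4.05 in BT549 and 24.6 ± 3.07 in MDAMB231, and only the last pair of neighbours did not differ (edgeR adjusted p 0.0594). BCL2L11 was at 73.9 ± 6.49 CPM in MDAMB468 and 31.0 ± 4.51 in BT549. MDAMB231 (24.4 ± 4.59 CPM) and HCC1806 (23.9 ± 1.32 CPM) were lower than BT549 and did not differ from each other (edgeR adjusted p 0.811).

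BAX and BBC3 were lowest in MDAMB468. BAX was at 29.5 ± 1.02 CPM there against 55.3 ± 3.26 in HCC1806, 64.1 ± 4.88 in MDAMB231 and 65.9 ± 3.66 in BT549, and the 2 highest lines did not differ (edgeR adjusted p 0.770). BBC3 was at 3.75 ± 0.166 CPM in MDAMB468 and at 8.90 to 10.0 CPM in the other 3 lines, which did not differ among themselves. BAK1 had the narrowest span, 1.54-fold, with BT549 (28.2 ± 2.71 CPM) below the other 3 lines and no other pair past the threshold. In 8 of the 10 genes the 4 lines came in the same order in the shADAR1 arm; in PMAIP1 and BAK1 lines that did not differ in shNT changed places.

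For each member the genes most like it over the 24 libraries were sought among 11481 genes that averaged 2 or more on the log2 CPM scale, by Pearson's r. The values follow the 4 lines and share their libraries, so they are a description. BCL2L1 had the closest partners, CHRNB1 (r 0.993) and SMAD3 (r 0.991), and BAX had PDLIM7 (0.986) and RASA3 (0.985). BIK ran with MAL2 (0.985) and MX1 (0.985), BCL2 with KCNIP3 (0.975) and DPY19L3 (0.971), and BCL2L11 with ATP6V1B1 (0.974) and ANKRD18A (0.972). BID had TMEM183A (0.974) and OSBP2 (0.972), and PMAIP1 had ADGRE5 (0.971) and KCTD14 (0.969). BBC3 was nearest to MIDEAS (0.939) and TGIF2 (0.933), and BAK1 to CANT1 (0.938) and GRB2 (0.935). The loosest were those of MCL1, ANAPC10 (0.859) and SOCAR (0.857).

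ADAR1 knockdown moved the family little next to these differences between lines, and the 1 gene called over the 4 lines together was BBC3, which rose. Without pairing the replicates, no member passed in BT549 (0.473% of all genes tested did), HCC1806 (0.0468%), MDAMB231 (2.01%) or MDAMB468 (0.0375%). At an unadjusted p under 0.05 there were 2 members in BT549 (BBC3 and BAK1; 6.42% of all genes), 1 in HCC1806 (BBC3; 4.35%), 1 in MDAMB231 (BAK1; 11.7%) and 1 in MDAMB468 (BBC3; 3.76%). DESeq2 called no member in any line either, and its share of all genes called was not computed. In the mean of the 4 line effects 1 of 10 members passed, against 2.96% of all genes (1.26% higher), and 3 were under 0.05 unadjusted, against 12.8%. Effects had the same sign in all 4 lines for 5 members on the higher side (BBC3, PMAIP1, BCL2L11, BCL2L1 and MCL1; 12.3% of all genes) and 2 on the lower side (BAX and BAK1; 9.41%), the sign of MCL1 in BT549 turning with the scaling. In bulk RNA, fewer cells that express a gene and less RNA per cell cannot be told apart. The median log2 fold change of the 10 in that mean was 0.00, beside 0.02 over all genes tested, with 5 members positive and 5 negative.

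The labels do not say that a replicate number marks a shared day or batch. Same-numbered libraries of the arms of a line deviated together, so a fit with the replicate number within each line as a block was made as well. It called 3 members in BT549 (5.14% of all genes), 1 in HCC1806 (2.1%), 2 in MDAMB231 (11.4%) and 1 in MDAMB468 (1.66%). In the mean of the lines it called 5 of 10, against 13.2% of all genes: BBC3, PMAIP1, BCL2L11 and MCL1 higher and BAK1 lower. BID, BAX, BIK, BCL2 and BCL2L1 were not called in either fit. The share of genes called over the whole table rose with the block as well, so the members' counts are to be read against the percentages of the same fit.

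**Figure D2:**
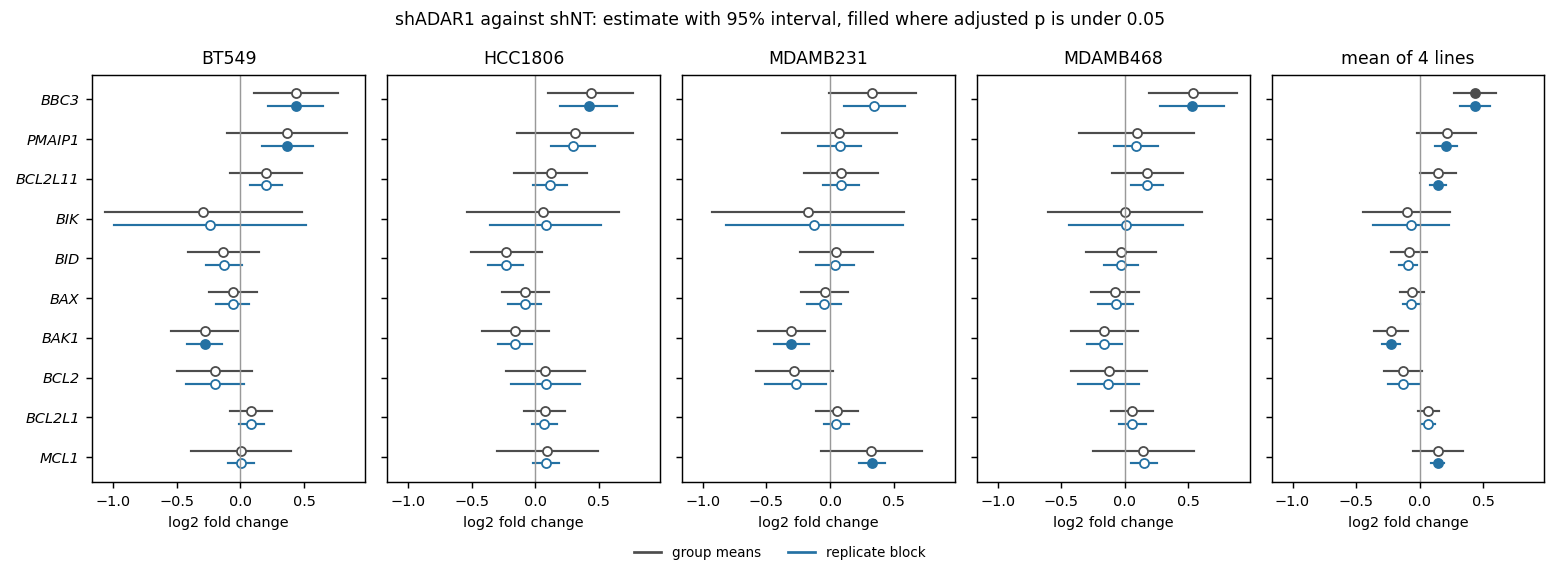
Log2 fold change of shADAR1 against shNT with its 95% interval (x axis) for each of the 10 genes (y axis) in each line and in the mean of 4 lines, from the fit on group means (grey) and with the replicate block (blue), filled where the adjusted p is under 0.05. BBC3 is to the right of 0 in every panel and is filled in both fits in the mean of the lines (0.44 and 0.43); the estimates of the 2 fits nearly coincide and the blocked intervals are narrower.

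BBC3 (ENSG00000105327, chr19:47220822-47232766, minus strand) is a BH3-only gene induced by many stresses. In BT549 its CPM in replicates 1, 2 and 3 was 9.62, 8.49 and 12.03 in shNT and 13.1, 11.4 and 16.3 in shADAR1. In HCC1806 it was 8.31, 8.55 and 9.91 in shNT and 13.5, 10.2 and 12.6 in shADAR1. The arms overlapped in BT549, where replicate 3 of shNT lay above replicate 2 of shADAR1, and did not in HCC1806.

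MDAMB231 had 9.04, 9.48 and 8.18 CPM of BBC3 in shNT and 9.92, 12.6 and 11.0 in shADAR1. MDAMB468 had 3.94, 3.69 and 3.63 CPM in shNT and 5.98, 4.90 and 5.45 in shADAR1. In both lines all 3 knockdown libraries were above all 3 controls. Such separation with shADAR1 higher was seen in 4.38% of all genes in HCC1806, 7.19% in MDAMB231 and 6.69% in MDAMB468.

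BBC3 gave line effects (log2 fold changes) of 0.44 (SE 0.159) for BT549, 0.44 (SE 0.161) for HCC1806, 0.33 (SE 0.164) for MDAMB231 and 0.54 (SE 0.168) for MDAMB468. Their mean was 0.44 (SE 0.0814, 95% interval 0.27 to 0.60), a 1.35-fold rise with an edgeR adjusted p of 0.00206. With the block the mean was 0.43 (edgeR adjusted p 9.65e-06), and the rise passed in BT549 (adjusted p 0.0142), HCC1806 (0.0435) and MDAMB468 (0.0266) and not in MDAMB231 (0.0522). The joint test of a difference between the 4 line effects gave no call (edgeR adjusted p 1.00, with the block 0.923), so a call in 3 lines does not set MDAMB231 apart.

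PMAIP1 (ENSG00000141682, chr18:59899948-59904306, plus strand) was higher in BT549, where shNT had 4.97, 6.38 and 4.51 CPM and shADAR1 had 6.93, 7.12 and 6.46 CPM in replicates 1, 2 and 3. The arms did not overlap there (8.24% of all genes were separated upwards in BT549). In HCC1806 it had 24.1, 18.7 and 16.2 CPM in shNT and 30.5, 24.5 and 18.1 in shADAR1, which overlap although each numbered shADAR1 library was above its partner.

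In MDAMB231 PMAIP1 had 54.0, 32.1 and 45.6 CPM in shNT against 55.7, 34.5 and 47.9 in shADAR1, and in MDAMB468 22.5, 16.4 and 23.9 against 26.4, 18.2 and 22.3. Here the spread between replicate numbers exceeded the step between the arms. The mean of the line effects was 0.21 (SE 0.110, 95% interval -0.02 to 0.44, edgeR adjusted p 0.444); with the block it was 0.21 (SE 0.0429, edgeR adjusted p 0.00188). Blocked values by line were 0.37 for BT549 (adjusted p 0.0245), 0.30 for HCC1806 (0.0702), 0.07 for MDAMB231 (0.673) and 0.09 for MDAMB468 (0.824). The blocked joint test between lines did not pass (edgeR adjusted p 0.313).

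BCL2L11 (ENSG00000153094, chr2:111119378-111168447, plus strand) encodes BIM, of which gene counts cannot separate the splice forms. It had 28.7, 28.2 and 36.2 CPM in BT549 shNT and 32.8, 32.5 and 41.7 in BT549 shADAR1, and 81.2, 68.8 and 71.8 against 90.1, 78.6 and 81.5 in MDAMB468. HCC1806 had 24.2, 22.4 and 25.0 CPM against 27.4, 24.3 and 26.1, and MDAMB231 20.3, 29.4 and 23.5 against 23.8, 30.7 and 23.6. The arms overlapped in every line, while every numbered library of shADAR1 was above its partner. The mean line effect was 0.14 (SE 0.0683, edgeR adjusted p 0.370), and with the block 0.14 (SE 0.0316, edgeR adjusted p 0.00302). No single line passed with the block, the nearest being BT549 (0.20, edgeR adjusted p 0.0643).

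The other BH3-only members gave no call in either fit. BID had line effects of -0.13, -0.23, 0.05 and -0.03 in BT549, HCC1806, MDAMB231 and MDAMB468, with a mean of -0.09 (95% interval -0.23 to 0.05, edgeR adjusted p 0.693; with the block 0.0953). BIK had -0.29, 0.06, -0.18 and -0.00, with wide intervals in BT549 (-1.07 to 0.48) and MDAMB231 (-0.93 to 0.58) at its low counts. Its mean was -0.10 (95% interval -0.45 to 0.24, edgeR adjusted p 0.932), an interval that leaves room for a change in either direction.

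BAK1 (ENSG00000030110, chr6:33572547-33580293, minus strand), the effector that resides on the outer mitochondrial membrane, was lower after knockdown. Its clearest case was MDAMB231, with 44.0, 43.3 and 43.3 CPM in shNT and 34.4, 35.3 and 35.9 in shADAR1. BT549 had 30.1, 29.4 and 25.1 CPM against 24.9, 22.2 and 22.7. The arms did not overlap in these 2 lines, as for 7.01% of all genes downwards in MDAMB231 and 6.43% in BT549.

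HCC1806 had 40.2, 49.9 and 40.4 CPM of BAK1 in shNT against 36.5, 45.8 and 34.8 in shADAR1, and MDAMB468 31.1, 35.3 and 42.2 against 27.7, 32.9 and 36.4. These arms overlap, and each numbered library of shADAR1 was below its partner. Line effects were -0.28 for BT549, -0.16 for HCC1806, -0.31 for MDAMB231 and -0.16 for MDAMB468. Their mean of -0.23 (SE 0.0634, 95% interval -0.36 to -0.10) just missed the threshold (edgeR adjusted p 0.0538).

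BAK1 passed with the block in the mean (-0.23, edgeR adjusted p 4.89e-05), in BT549 (-0.28, 0.0131) and in MDAMB231 (-0.30, 0.00434). In the mean without the block it also passed with DESeq2 (-0.24, adjusted p 0.00764), and edgeR's adjusted p was 0.0347 with RLE scaling, 0.0409 with upper-quartile scaling and 0.0205 with only genes of at least 10 counts in every library. With no filter on low counts it did not pass (0.0928). Leaving out 1 library brought it under the threshold in 4 of 24 cases: BT549 shNT replicate 3 (0.0400), HCC1806 shADAR1 replicate 2 (0.0199), MDAMB468 shADAR1 replicate 3 (0.0394) and MDAMB468 shNT replicate 1 (0.0341). GENCODE 29 lists processed copies of BAK1 (BAK1P1 and BAK1P2), and how reads shared with them were counted is not given in the sources used here.

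BAX (ENSG00000087088, chr19:48954815-48961798, plus strand), the effector that moves to mitochondria from the cytosol, had line effects of -0.06, -0.08, -0.04 and -0.08 in the same order. Its mean was -0.06 (SE 0.0452, 95% interval -0.16 to 0.03, edgeR adjusted p 0.640; with the block 0.212). The interval leaves room for a fall of 0.16 and a rise of 0.03 on the log2 scale. In MDAMB468 the arms did not overlap, with 28.4 to 30.4 CPM in shNT and 27.5 to 28.3 in shADAR1; 4.3% of all genes were separated downwards there. In HCC1806 no member was separated downwards (3.2% of all genes were).

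MCL1 (ENSG00000143384, chr1:150574551-150579738, minus strand) was the 1 member whose change differed between lines, and only with the block. In MDAMB231 shNT it had 592, 342 and 495 CPM in replicates 1, 2 and 3, and in shADAR1 754, 449 and 584 CPM. Each shADAR1 library was above its numbered partner, while libraries of different numbers differed more than the arms did. In BT549 it had 296, 327 and 300 CPM against 307, 316 and 303, with no common direction.

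HCC1806 had 382, 343 and 263 CPM of MCL1 against 418, 370 and 266, and MDAMB468 409, 331 and 442 against 442, 382 and 485. Without the block no effect passed, and the mean was 0.14 (SE 0.0956, edgeR adjusted p 0.608). With the block the mean was 0.14 (SE 0.0245, edgeR adjusted p 0.000308). Blocked line effects were 0.33 for MDAMB231 (adjusted p 8.98e-05), 0.15 for MDAMB468 (0.159), 0.09 for HCC1806 (0.505) and 0.01 for BT549 (1.00). In BT549 the estimate was 0.00 without the block and fell below 0 with RLE and upper-quartile scaling.

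The blocked joint test of a difference between line effects passed for MCL1 (edgeR adjusted p 0.0315), as it did for 4.69% of all genes, and for no other member. Without the block that test called none of the 10 (0.0234% of all genes), with an edgeR adjusted p of 1.00 for MCL1 and none of the 10 under 0.05 unadjusted (4.44% of all genes were). Gene counts do not separate the long, protective form of MCL1 from its short form.

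BCL2L1 (ENSG00000171552, chr20:31664452-31723989, minus strand) was higher in shADAR1 by small steps of 0.09, 0.07, 0.05 and 0.06 on the log2 scale in BT549, HCC1806, MDAMB231 and MDAMB468. In HCC1806 the arms did not overlap, at 216, 224 and 219 CPM against 241, 225 and 227, as for 4.38% of all genes upwards there. The mean of 0.07 (SE 0.0396, 95% interval -0.01 to 0.15) did not pass (edgeR adjusted p 0.523; with the block 0.0762). The interval bounds a rise at 0.15.

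BCL2 (ENSG00000171791, chr18:63123346-63320128, minus strand) gave -0.20 for BT549, 0.08 for HCC1806, -0.28 for MDAMB231 and -0.13 for MDAMB468. MDAMB231 had 16.6, 13.6 and 16.3 CPM against 12.3, 11.8 and 14.1, and the arms overlapped in every line. The mean was -0.13 (SE 0.0727, 95% interval -0.28 to 0.02, edgeR adjusted p 0.479; with the block 0.174).

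Directions were also counted over the 12 same-numbered pairs, without a model. BBC3, BCL2L11 and BCL2L1 were higher in shADAR1 in 12 of 12 pairs, as were 1.33% of all genes, and BAK1 was lower in 12 of 12, as were 1.68%. PMAIP1 and MCL1 were higher in 11, BAX was lower in 10, BID and BCL2 were lower in 9, and BIK was higher in 6. Shares of all genes at these lower counts were not computed. Under RLE and upper-quartile scaling BCL2L1 was higher in 11 pairs and MCL1 in 10, and the other 8 counts did not move.

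**Figure D3:**
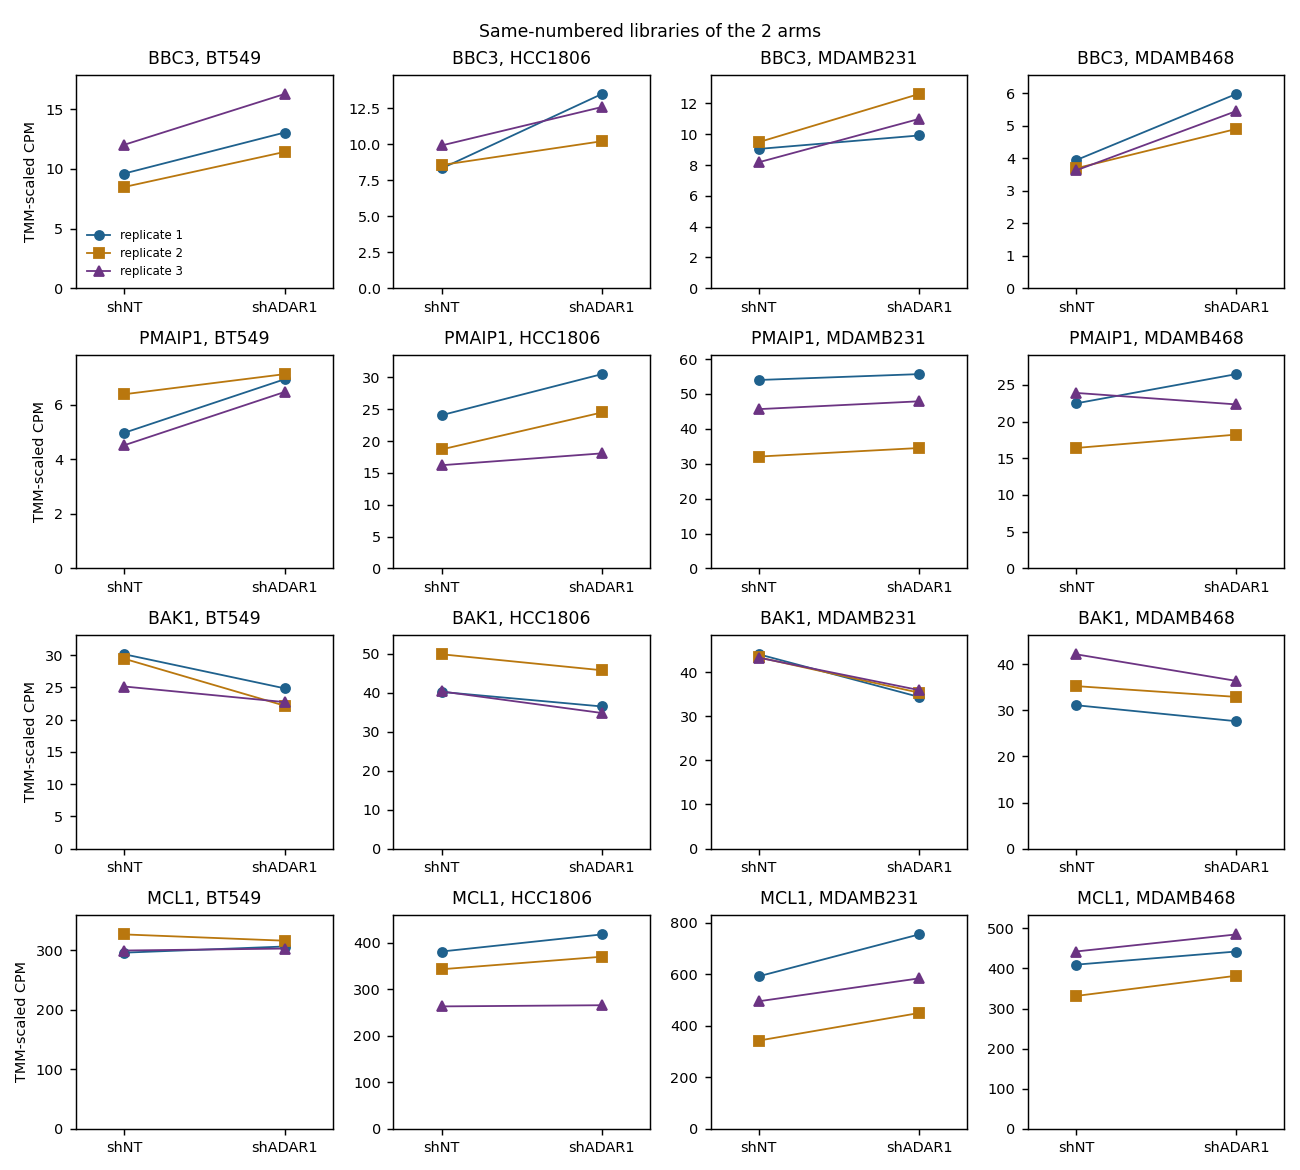
CPM after TMM scaling (y axes from 0) of BBC3, PMAIP1, BAK1 and MCL1 in each line, with a line joining the shNT and shADAR1 libraries of the same replicate number. BBC3 lines all rise and BAK1 lines all fall in 12 of 12 pairs; the MCL1 lines of MDAMB231 run side by side from 342 to 592 CPM up to 449 to 754.

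Because BBC3 rose and BAK1 fell, the stretches before their start sites were examined in RefSeq (GRCh38.p14), from 250 bases before to 50 after the start. The table held 13 windows for 8 of the 10 genes (5 for BID, 2 for BCL2L1 and 1 for each of the others). Both strands were searched for TTTCGCGC and TTTGGCGC (E2F), CACGTG (E-box), TGATGNAA (ATF4), TGTTTAC (forkhead), GGGCGG (GC box) and TGACGTCA (CRE). Shown are 30 bases around the matches in BBC3 and BCL2L11 other than GC boxes, with the match in capitals.
BBC3 (chr19:47232882-47232911, minus strand, E-box at -232): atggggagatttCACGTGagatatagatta
BCL2L11 (chr2:111120679-111120708, plus strand, forkhead match on the opposite strand at -223): agagttactccgGTAAACAcgccagggacg
Of all 35116 windows 7.26% held the E-box and 3.42% the forkhead match. BID and BAX also held E-boxes, BAX with 4 matches. Whether a motif goes with a gene's change after knockdown was not tested. Of the members' 13 windows 4 held the E-box (in 3 genes), 1 the forkhead match and 9 the GC box (in 6 genes), the last beside 45% of all windows. The BID windows overlap in part, so the same BID E-box and GC boxes were counted in more than 1 window. BAK1 held GC boxes alone among these motifs. The E2F, ATF4 and CRE letters were in none of the 13, and in 0.515%, 0.652%, 3.62% and 1.85% of all windows in the order of the search list. A match describes the letters and is not a bound site.

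The wider pathway was followed in 7 lists of 67 other genes, of which BCL2L10, BIRC7 and FASLG had too few counts to test. Without the block, 3 of these genes were called in any line or in the mean. Of all genes tested, 0.473% were called in BT549, 0.0468% in HCC1806, 2.01% in MDAMB231, 0.0375% in MDAMB468 and 2.96% in the mean. The share of all genes called in at least 1 of these comparisons was not computed. RIPK1, the kinase that relays tumour necrosis factor signals, fell in MDAMB231, where shNT stood at 65.7 ± 1.85 CPM and shADAR1 at 47.8 ± 2.91 CPM (log2 difference -0.46, with an edgeR adjusted p of 0.0457), and this call was lost in 17 of the 24 fits that leave out 1 library (adjusted p 0.0210 to 0.251). The RIPK1 call was also lost with upper-quartile scaling (0.0625), with no filter on low counts (0.0636) and from the line's 6 libraries alone (0.0547). TP63, a factor of basal epithelial cells, fell in MDAMB231, with 1.11 ± 0.0934 CPM in shNT and 0.446 ± 0.225 in shADAR1 (-1.28, edgeR adjusted p 0.0194), a level far below that in HCC1806 (174 CPM in shNT). The TP63 call was lost without MDAMB231 shADAR1 replicate 1 (0.105) or 2 (0.124) and without MDAMB231 shNT replicate 2 (0.0999) or 3 (0.0704), and from the line's 6 libraries alone (0.343). E2F1, a cell cycle factor that can drive BH3-only genes, rose in the mean of the lines (0.20, edgeR adjusted p 0.0171).

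With the block the calls in the mean of the lines are to be read against 7.25% of all genes higher and 5.96% lower. The genes named from that fit were chosen after their values were seen. Of 10 other BCL2 family genes tested, 2 rose and none fell: BNIP3 (0.13, edgeR adjusted p 0.0304) and BNIP3L (0.14, 0.00974), mitophagy receptors with a BH3-like stretch. Of 13 apoptosome and executioner genes 1 rose, CYCS, which encodes cytochrome c (0.14, edgeR adjusted p 0.00289), and 1 fell, DFFA, the inhibitor of the caspase-activated nuclease (-0.20, 1.16e-05). BNIP3 and CYCS have many processed copies, with which reads may be shared.

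Of 5 inhibitor of apoptosis genes, BIRC2 (0.17, edgeR adjusted p 0.000674) and BIRC3 (0.48, 0.000222) rose and BIRC6 fell (-0.09, 0.00824) with the block. BIRC2 and BIRC3 encode cIAP1 and cIAP2, which ubiquitinate RIPK1. BIRC3 moved mainly in HCC1806, from 15.5 ± 5.44 to 37.0 ± 16.4 CPM. Of 13 death receptor genes, the TRAIL receptor genes TNFRSF10A (0.18, edgeR adjusted p 0.00661) and TNFRSF10B (0.13, 0.0166) rose, and TNFRSF1A (-0.11, 0.00703) and RIPK1 (-0.21, 0.000150) fell.

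Of 6 genes for turnover of BCL2 family proteins none rose and 2 fell in the mean with the block, HUWE1 (-0.06, edgeR adjusted p 0.0487) and FBXW7 (-0.12, 0.0167), ubiquitin ligase genes whose products target MCL1. In single lines the block called the opposite direction for others of this list: USP9X, a deubiquitinase gene, rose in BT549 (0.16, edgeR adjusted p 0.0494), and the ligase genes BTRC (0.23, 0.0244) and MARCHF5 (0.25, 0.0184) rose in MDAMB231. Of 5 outer membrane partners 2 rose, VDAC2, which recruits BAK1 and BAX to the membrane (0.18, edgeR adjusted p 0.000482), and MTCH2, a receptor for truncated BID (0.12, 0.00658). BCAP31, an endoplasmic reticulum protein gene, rose in MDAMB231 (0.20, edgeR adjusted p 0.0374). Of 12 transcription factor genes 3 rose and none fell: ATF3 (0.55, edgeR adjusted p 8.84e-06), E2F1 (0.20, 0.000169) and MYC (0.16, 0.00144). ATF3 varied widely between replicates, at 31.8 ± 33.3 CPM in MDAMB231 shADAR1 and 17.6 ± 15.9 in shNT.

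The median log2 fold changes of the 7 lists in the mean of the lines, without the block, were 0.10 for the other BCL2 family, 0.01 for the apoptosome list and -0.00 for the inhibitors of apoptosis. They were 0.06 for death receptors, 0.03 for protein turnover, 0.07 for outer membrane partners and 0.04 for transcription factors, beside 0.02 for all genes tested. Cell identity markers moved in the mean of the lines too. With the block 2 of 4 epithelial markers rose, KRT18 (0.79, edgeR adjusted p 0.0409) and CDH1 (0.59, 0.00518), the first with shNT means between 0.00160 RPKM in BT549 and 155 RPKM in HCC1806. So did 2 of 3 mesenchymal markers, VIM (0.38, 6.88e-07) and FN1 (0.23, 6.29e-05), and without the block none of the 7 was called. CDH1 was near 0 in BT549 and MDAMB231, where it was higher in shADAR1 in 3 of 3 same-numbered pairs each. In HCC1806 and MDAMB468, where CDH1 was high, it was higher in 1 of 3 pairs each. The part of these markers in the members' changes was not tested.

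**Figure D4:**
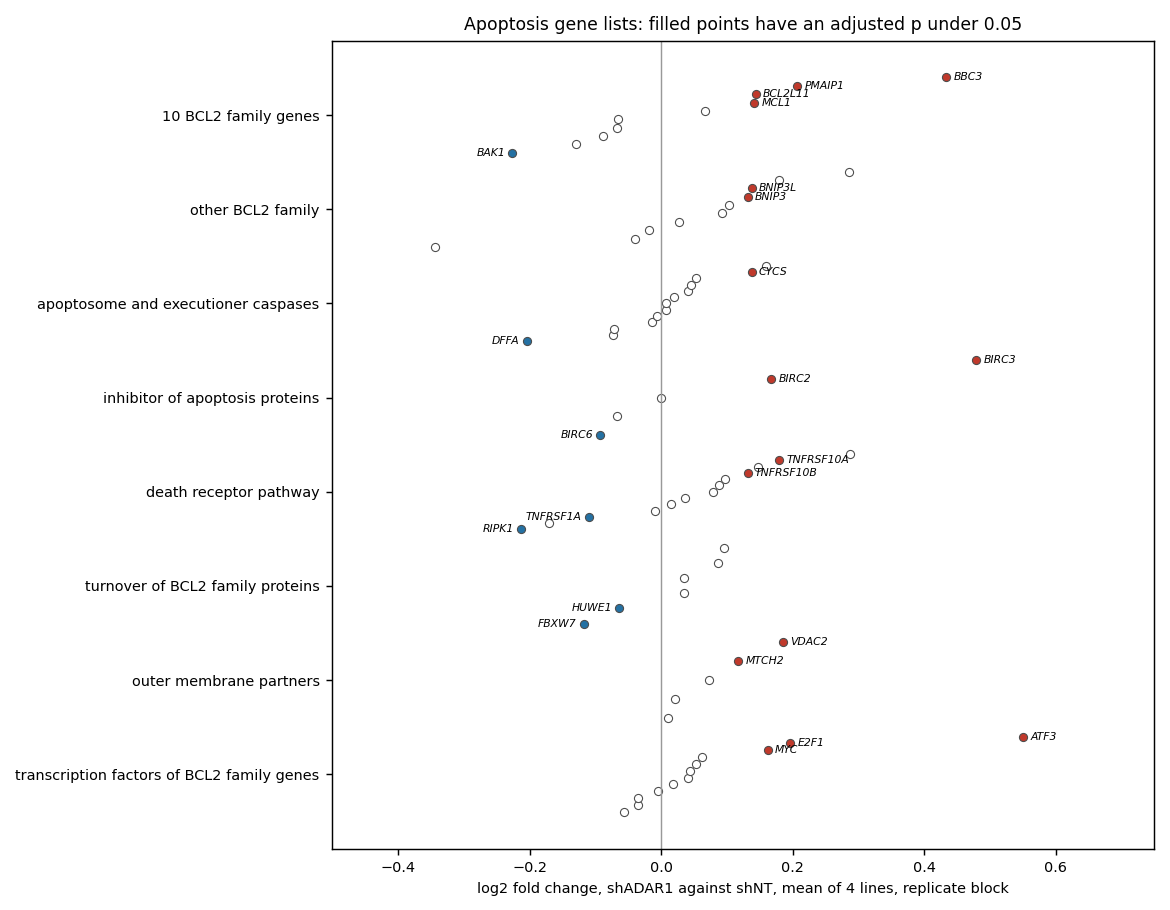
Blocked log2 fold change of shADAR1 against shNT, mean of 4 lines (x axis), for the 10 BCL2 family genes and 7 lists of other apoptosis genes (y axis, 1 point a gene, spread vertically only to separate points), filled red or blue where higher or lower at an adjusted p under 0.05. BBC3 (0.43), BIRC3 (0.48) and ATF3 (0.55) lie farthest to the right of the filled points, and BAK1 (-0.23) farthest to the left.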

How the data were processed

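RNA-seq gene tables of 24 libraries were used, 1 per library. Per the file headers they hold read counts, CPM and RPKM made by the authors. The deposited counts are whole numbers, the deposited CPM equals the count over the library total, and the deposited RPKM equals CPM over the listed gene length. The submitters' processing notes name bcl2fastq, STAR, Subread, featureCounts and edgeR, with no roles; genome build, annotation and strand use are not given in the sources used here. All 10 genes have the same start and end as in GENCODE 29 on GRCh38. MIR3190 overlaps 80 bases of BBC3 and had 0 counts; no other listed gene overlaps a member. The CPM and RPKM values printed were recomputed from the deposited counts with TMM factors (0.924 to 1.12).

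Counts were tested with edgeR 4.0.16 in R 4.3.3 (quasi-likelihood F test, 2-sided) after filterByExpr, in 1 model with a coefficient for each of the 8 groups. P-values were adjusted by Benjamini-Hochberg over 21352 genes, threshold 0.05. SE came from the fold change and F. Every one of the 12 same-numbered pairs had deviations from the group means that correlated over 0.1 (0.240 to 0.783 over the 11794 genes whose libraries all held 10 counts or more; 0.180 to 0.716 over all genes tested), so the numbers were taken as pairing the arms and blocked values stand beside results. Replicates differed beyond counting noise (a chi-square of 11.8 or more for each degree of freedom). On simulated BT549 data with 200 genes changed 2-fold among 20673, 85% were recovered, with 9 false among 179 calls. The changed genes were drawn from the better counted ones, and same-numbered libraries were simulated as unrelated. All effects of the 10 members were below 2-fold, so this recovery does not apply to them.

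All members are named. From each list the genes past the threshold in the mean or any line are named, at most 5 with the smallest p in the mean; the same was done with the block, after its values were seen. For each member the 2 most correlated genes are named. The members, lists and tests were chosen with earlier results of these data known. Alternatives tried: DESeq2 1.42.0, scaling by RLE or upper quartile, no filter or a stricter one, the block, the line's 6 libraries alone, and leaving out each library. Some results on a withheld item are not reported here.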

Additional observations from a re-analysis of the deposited data

Results flagged for a closer look

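The effects of shADAR1 on 15 of the genes followed differed between the 4 lines in the joint test with the replicate block (edgeR quasi-likelihood, Benjamini-Hochberg over all genes tested), which called 4.69% of all genes. Called were 1 of 10 members, 1 of 5 inhibitor of apoptosis, 3 of 13 death receptor and 3 of 12 transcription factor genes. None was called of 10 other BCL2 family, 13 apoptosome, 6 turnover and 5 outer membrane partner genes. Identity markers gave 1 of 4 epithelial, 3 of 3 mesenchymal, 1 of 3 receptor and 0 of 3 blood and endothelial genes. ADAR and MDM2 were the rest. Among the family members this was MCL1 (adjusted p 0.0315), with blocked log2 fold changes of 0.33 in MDAMB231 and 0.01 in BT549. MCL1 was higher in 3 of 3 same-numbered pairs in each of MDAMB231, HCC1806 and MDAMB468, and in 2 of 3 in BT549.

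The depth of the knockdown differed too: ADAR gave an adjusted p of 0.0129 in that test, with -2.20 in MDAMB231 and -1.44 in MDAMB468. Its part in the other differences was not tested. MDM2, a ubiquitin ligase gene outside the lists, gave 0.0101, with 0.94 in BT549 and 0.38 in HCC1806 and a call in each line with the block. Without the block MDM2 was called in BT549 (edgeR adjusted p 0.000209) and MDAMB231 (4.78e-05). It was not called in HCC1806 (0.684) or MDAMB468 (0.132) in that fit.

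In the inhibitor of apoptosis and death receptor lists, BIRC3 (adjusted p 0.0117) had 1.22 in HCC1806 and 0.14 in MDAMB468. TNFRSF10A (0.00620) had 0.48 in MDAMB231 and -0.15 in HCC1806, and TNFRSF10D (0.0157) had -0.87 in MDAMB468 and 0.35 in BT549. RIPK1 (0.00705) had -0.46 in MDAMB231 and 0.03 in HCC1806.

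Among transcription factor genes, TP63 (adjusted p 0.0129) had -1.25 in MDAMB231 and 0.57 in MDAMB468. FOXO3 (0.0490) had -0.20 in BT549 and 0.12 in HCC1806, and JUN (0.0338) had -0.25 in BT549 and 0.19 in MDAMB231. Identity markers differed as well: FN1 (adjusted p 0.000761) had 0.70 in MDAMB468, VIM (0.0254) had 0.68 in HCC1806, ZEB1 (0.0473) had -0.32 in MDAMB231, CDH1 (0.0490) had 1.52 in MDAMB231 at near 0 RPKM, and ERBB2 (0.0293) had 0.26 in MDAMB468. Their part in the other differences was not tested. Without the block none of the 15 passed the joint test.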

How the results depend on the processing

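The replicate block called 3 family members in BT549 (5.14% of all genes) and 1 in HCC1806 (2.1%). It called 2 in MDAMB231 (11.4%) and 1 in MDAMB468 (1.66%). Without the block 0 were called in each line (0.473%, 0.0468%, 2.01% and 0.0375% in that order). In the mean of the 4 lines the block called 5 (13.2%) against 1 (2.96%). In the joint test between lines it called 1 (4.69%) against 0 (0.0234%). In the mean, RLE scaling, upper-quartile scaling, at least 10 counts in every library and DESeq2 each called 2 members, BBC3 and BAK1. Leaving out 1 library gave 1 to 2. Shares of all genes called were not computed for these other settings. The rise of BBC3 in the mean passed in all 24 fits without 1 library (edgeR adjusted p 0.000782 to 0.00636) and in all 6 other alternatives run (9.65e-06 to 0.00288).

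Effects near 0 changed sign; the cause was not tested. MCL1 in BT549 (0.00) was -0.0122 under RLE scaling, -0.00431 under upper-quartile scaling, -0.00186 with at least 10 counts in every library, -0.0122 with DESeq2 and -0.00967 from the line's 6 libraries alone. BIK in MDAMB468 (-0.00) was 0.00990 with no filter and 0.0111 with the block. Leaving out 1 library at a time also turned these effects, whose ranges were, in BT549, -0.0201 to 0.0525 for MCL1; in HCC1806, -0.10 to 0.34 for BIK, -0.14 to 0.0274 for BAX, -0.0699 to 0.19 for BCL2 and -0.0485 to 0.28 for MCL1. In MDAMB231 they were -0.11 to 0.24 for PMAIP1, -0.0573 to 0.24 for BCL2L11, -0.56 to 0.0473 for BIK, -0.0524 to 0.14 for BID, -0.10 to 0.0182 for BAX and -0.00644 to 0.13 for BCL2L1. In MDAMB468 they were -0.0638 to 0.22 for PMAIP1, -0.16 to 0.14 for BIK and -0.0893 to 0.0209 for BID.

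Of the 60 differences between lines in shNT, 41 to 43 passed under the other settings and 39 to 44 without 1 library. Shares of all genes were not computed for those fits. Not run were DESeq2 for the joint test, the block for differences between lines, and the block with a library left out. Counts of 15 to 50 per shNT library limit BIK in BT549 and MDAMB231.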
